A study of Drosophila melanogaster with 4 samples.

Results

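RNAs of exactly 23 nt were examined in small RNA libraries of Drosophila melanogaster males at the third larval instar. They were taken by length alone: every listed sequence tag of 23 nt with no unread base (N) counted, which gave 4388 of the 252353 distinct tags of the series. The snapback group (n = 2 libraries) came from males that ectopically express double-stranded RNA of the 1.688 satellite, a tandem DNA repeat, from a snapback construct that folds back on itself. The yw group (n = 2 libraries) came from males of the yw laboratory strain, which has no such construct. Each library was made from the total RNA of 50 pooled larvae, enriched for small RNA. The labels give no driver or promoter for the construct. Whether the 2 libraries of a genotype were from separately grown larvae is not stated, and p-values then cover just the spread between libraries, possibly a technical one.

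In flies, microRNAs (miRNAs) are cut from hairpin precursors by Dicer-1 and loaded into Argonaute proteins, and most are 22 nt long, with some at 21 or 23 nt. Bases 2 to 8, the seed, pair with target messenger RNAs, so miRNAs with the same seed are grouped as a family. The start of a miRNA is usually fixed while its 3′ end varies, through imprecise cutting, trimming or the addition of single bases by nucleotidyl transferases. Piwi-interacting RNAs, which silence transposons, are longer on average and often begin with uridine, which is read as T. Fragments of longer RNAs such as ribosomal and transfer RNA also enter such libraries and tend to have many starts and ends. Tags were not matched to miRNAs or to a genome. They are therefore named by rank and by their bases 2 to 8 rather than by gene, and full sequences are not printed.

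Libraries listed 815 and 1077 tags of 23 nt in snapback replicates 1 and 2, with 96548 and 148157 reads. They listed 2958 and 1763 in yw replicates 1 and 2, with 342058 and 171430 reads. Levels below are reads per 1000000 listed 23 nt reads of the library, abbreviated RPM, unless another scale is named. The lowest count listed was 4, so that an absent tag could hide up to 3 reads (31.1, 20.2, 8.77 and 17.5 RPM in the same order). These floors cover counting error only, since reads were not collapsed to molecules. Only 248 tags were listed in all 4 libraries, and 2844 were listed in a single one. The 248 nevertheless held 92.9% and 91.8% of 23 nt reads in snapback and 81.1% and 80.0% in yw. Across these 248 tags, log2 levels correlated at r = 0.906 for the snapback pair, at 0.890 for the yw pair, and at 0.534 to 0.580 for pairs of unlike genotype. Tags of 1 library share its preparation and are not independent replicates.

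The 23 nt length class took 3.63% and 3.98% of the 18 to 30 nt reads in snapback and 5.77% and 5.29% in yw. The exact 95% binomial intervals are 3.61 to 3.65, 3.96 to 3.997, 5.75 to 5.79 and 5.26 to 5.31. Such intervals, here and below, take reads as independent and cover counting error only, not the spread between libraries. The share was lower in snapback against this denominator and higher against 2 others. Of all listed reads, 23 nt reads made up 1.81% and 1.90% in snapback and 1.67% and 1.13% in yw, and without 30 nt reads in the denominator they made up 16.02% and 17.6% against 5.94% and 5.50%. The groups did not overlap under any of these 3 denominators (exact two-sided permutation test, p = 0.33 each time, which is the smallest value that 2 against 2 libraries allow). In such bulk samples, fewer cells of a type and less RNA per cell cannot be told apart. The order of the genotypes therefore turned on how the 30 nt reads and the remaining lengths were counted.

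A few tags held most of the reads. The 10 most abundant tags of each library held 70.9% and 73.8% of 23 nt reads in snapback and 57.4% and 52.0% in yw, or 72.4% ± 2.03 against 54.7% ± 3.79 (SD, n = 2 each, p = 0.33 by the exact permutation test). The 5 and 4 most abundant tags sufficed for 50% of the reads in snapback replicates 1 and 2, and 8 and 10 were needed in yw replicates 1 and 2. The snapback libraries were thus the more concentrated ones at this length. At the other end, 53.7% to 56.9% of the tags of each library had fewer than 10 reads, and these tags together held 2.31% to 3.10% of its reads. Between 21.9% and 28.96% of the tags of a library differed by 1 base from a tag with at least 50 times as many reads, and they held 3.58% to 4.57% of the reads.

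**Figure D1:**
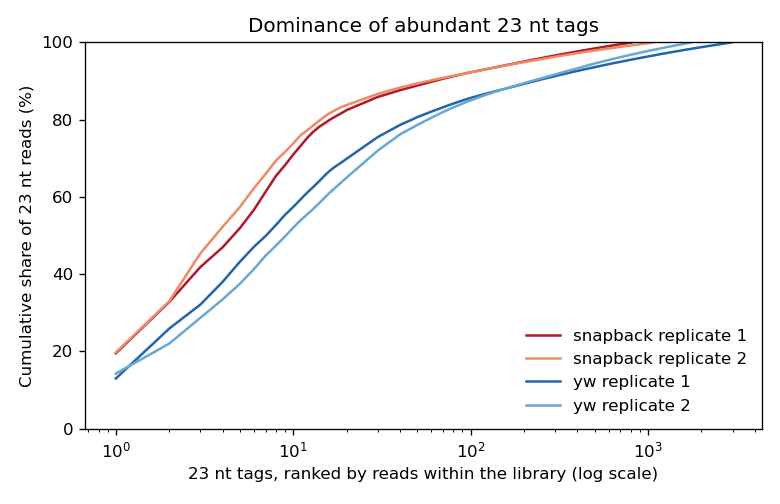
Cumulative share of 23 nt reads (vertical axis, %) held by the most abundant tags of each library, ranked within the library (horizontal axis, log scale), with 1 line per library. At rank 10 the snapback libraries stand at 70.9% and 73.8% and the yw libraries at 57.4% and 52.0%.

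Grouped by bases 2 to 8, the 4388 tags formed 2194 families, of which 1619 had a single tag and the largest had 110. The families are numbered by their mean share over the 4 libraries. Family 1 has AATACTG at bases 2 to 8 and held 13.7%, 13.5%, 13.5% and 16.03% of 23 nt reads in snapback replicates 1 and 2 and yw replicates 1 and 2. It was the largest family in both yw libraries, and its levels overlapped between the genotypes. In yw replicate 1 its lead was slight, at 13.536% against 13.5322% for family 5. Family 2, with AGGGTCG, was the largest in both snapback libraries at 20.7% and 20.8%, against 1.11% and 1.64% in yw. The largest family of a library thus averaged 20.7% ± 0.0930 for snapback against 14.8% ± 1.76 for yw (SD, n = 2 each, p = 0.33 by the exact permutation test). The difference of 5.95 percentage points was 9.53 without the windows of the most abundant 30 nt tag, a leave-out chosen after the data were seen.

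Family 3, with GGCAAGA, was close in the genotypes at 5.51% and 5.14% in snapback and 7.50% and 7.39% in yw, although the groups did not overlap. Family 4, with GCTTGGA, was at 9.24% and 12.7% in snapback and 0.316% and 0.687% in yw. Family 8, with AAGGGTC, was likewise high in snapback, at 5.43% and 7.30% against 0.175% and 0.299%. Among the 5 largest families of each group, families 5 and 10 were far lower in snapback. Family 5, with TGGGGAG, was at 0.263% and 0.182% in snapback and 13.5% and 7.47% in yw. Family 10, with GGAATGT, was at 0.0932% and 0.572% against 5.31% and 4.59%. Outside that list, families 14, 15, 17 and 18 were also low in snapback, and families 7, 11, 13, 16, 19 and 20 were high, all without overlap. Family 19, with CTGGTAC, was at 1.68% and 1.32% in snapback and 0.00672% and 0.00583% in yw. Lack of overlap was usual, since of the 20 largest families only families 1, 9 and 12 overlapped. Family 6, with CTTTGGT, differed less, at 3.15% and 2.37% in snapback and 5.95% and 9.87% in yw. With 2 libraries a group, the exact permutation test gave p = 0.33 for each of families 2 to 6, 8 and 10.

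How far 1 tag led a family varied between families and libraries. The leading tag held 88.8% to 98.5% of family 1 and 86.8% to 99.5% of family 4 over the 4 libraries. In yw replicates 1 and 2 the leading tag held only 59.2% and 78.9% of family 2, 78.1% and 64.5% of family 3, 62.0% and 72.3% of family 8, and 53.5% and 48.8% of family 10. In snapback replicates 1 and 2 it held 75.6% and 64.6% of family 10 and at least 91.06% of families 2, 3 and 8. The leading tag is the one with the highest mean share over the 4 libraries. For family 14, with GGGATGT, it held 83.9% and 76.2% in yw but 13.2% and 10.8% in snapback, with 42 and 12 reads. Tags with other first 18 bases made up 78.6% and 79.3% of that family in snapback, where 3 tags were listed in each library. Another sequence therefore led family 14 in snapback. The remainder was of different kinds. In family 3 it lay mostly in tags with other first 18 bases, which made up 20.6% and 30.4% of the family in yw and 5.37% and 4.41% in snapback. In family 10 such tags made up no more than 4.06% in any library, so that most of its tags shared the first 18 bases and differed after them.

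**Figure D2:**
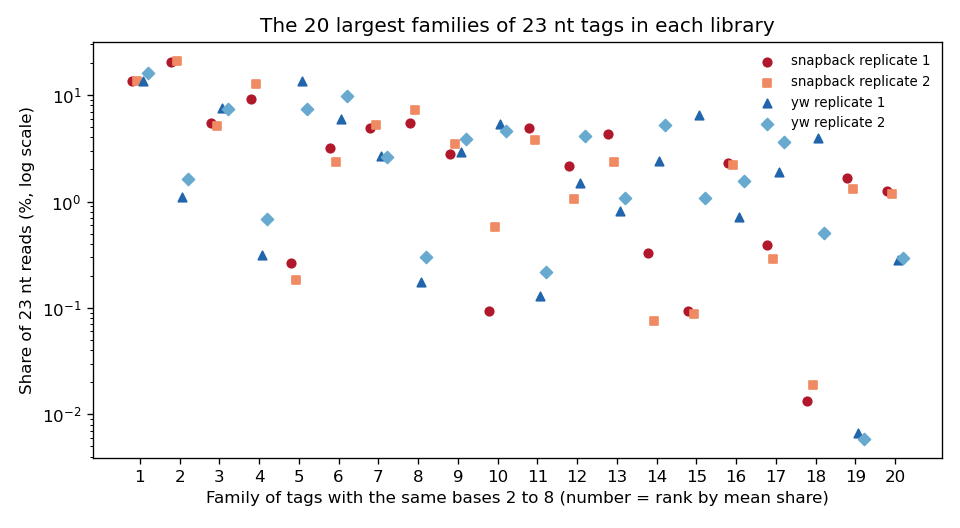
Share of 23 nt reads (vertical axis, %, log scale) of the 20 largest families of tags with the same bases 2 to 8 (horizontal axis, ranked by mean share over libraries), with 1 point per library. The points of family 1 lie between 13.5% and 16.03%, while family 2 lies above 20.6% in snapback and at 1.11% and 1.64% in yw.

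The abundant tags were of different kinds, and the first kind had a fixed start. For each tag, all listed tags of 18 to 30 nt that overlap it and start within 5 bases of it were counted. The leading tags of families 1, 3, 6, 7 and 9 (tags 1, 4, 6, 7 and 8 by mean level) had 96.2% to 100% of these reads at the same start in every library. Such a fixed 5′ end is the usual form of a miRNA, but these tags were not matched to any. At most 2 tags of 23 nt, with few reads, were shifted copies of any of them.

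Tag 1, the leading tag of family 1, held 132991 and 132603 RPM in snapback and 129636 and 142402 in yw. The snapback values lay within the range of yw. Its edgeR log2 difference was -0.67 ± 0.47 (SE, adjusted p = 0.218), and with listed 23 nt reads as the library size it was -0.03. Of all tags of 18 to 30 nt with its first 18 bases, 86.2% and 87.8% of reads in snapback and 86.1% and 91.7% in yw were 23 nt long. The 23 nt form was thus its main form in every library, and the 22 nt form ending 1 base earlier was rare, with the 23 nt form at 97.6%, 97.4%, 92.6% and 95.6% of the pair.

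Tag 4, the leading tag of family 3, stood at 50887 and 48712 RPM in snapback and 58648 and 47611 in yw, which overlapped (edgeR adjusted p = 0.236). Its length profile set yw replicate 1 apart. There the 23 nt form made up 37.9% of reads with the same first 18 bases. It made up 83.9% and 81.7% in snapback replicates 1 and 2 and 75.0% in yw replicate 2. A second abundant tag of family 3, tag 19, differs from tag 4 by C15A, with tag 4's base first and positions counted from 1 at the 5′ end. There were 4.91 and 3.96 reads of tag 19 for every 100 reads of tag 4 in snapback and 25.2 and 40.1 in yw. The tags with the same seed therefore did not keep a constant proportion to each other.

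Tag 6, of family 6, was at 28079 and 21538 RPM in snapback and 51816 and 77589 in yw. Its log2 difference was -2.005 ± 0.55 (SE, edgeR adjusted p = 0.00873). It did not pass with listed 23 nt reads as the library size (-1.38, adjusted p = 0.0619), with library totals (-1.19, adjusted p = 0.0831) or by DESeq2 (-1.89, adjusted p = 0.0594). Tag 7, of family 7 with GAGATCA, was at 47282 and 51088 in snapback and 26384 and 24202 in yw. Although its groups did not overlap, it did not pass edgeR (log2 difference 0.32 ± 0.58, adjusted p = 0.629). Tag 8, of family 9 with ATGGCAC, was at 26888 and 34261 in snapback and 28463 and 35501 in yw (edgeR adjusted p = 0.327).

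The lengths of these fixed-start tags did not differ between genotypes in 1 common direction. Tag 7 had more of its shorter reads at 22 nt in snapback (27.2% and 24.01%, against 11.2% and 12.2% in yw) and more at 21 nt in yw (26.6% and 20.4%, against 9.10% and 7.54% in snapback). For tag 8 the most frequent length was 23 nt in snapback, at 56.4% and 59.2%, and 24 nt in yw, at 51.2% and 48.9%. For tag 6 it was 23 nt in all libraries but yw replicate 2, where 22 nt reads made up 47.5% and 23 nt reads 46.4%. Tag 1 peaked at 23 nt in every library.

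**Figure D3:**
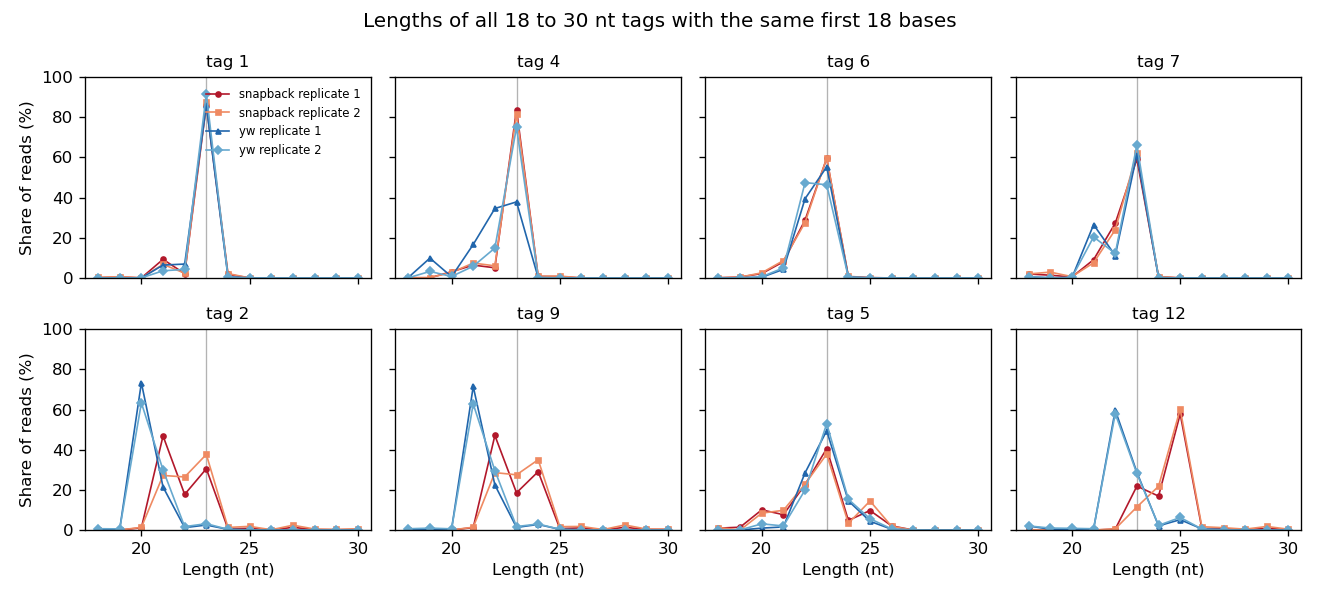
Length (horizontal axis, nt) of all listed 18 to 30 nt tags that share the first 18 bases of an abundant 23 nt tag, as a share of their reads (vertical axis, %), with 1 line per library and a grey line at 23 nt. The upper panels show tags with a fixed start, such as tag 1 with 86.1% to 91.7% of reads at 23 nt, and the lower panels show overlapping tags with several starts, whose peak moves from 20 nt in yw to 21 or 23 nt in snapback for tag 2.

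The second kind of abundant tag had staggered starts. Tag 2, which leads family 2, starts 1 base after tag 9, which leads family 8, and 2 bases after tag 12, which leads family 13 (TAAGGGT). These 3 tags are thus windows of a single longer sequence. Tag 2 held 194825 and 197088 RPM in snapback and 6578 and 12962 in yw. Tag 9 held 49457 and 68414 against 1085 and 2158. Tag 12 held 40871 and 22442 against 7604 and 9357. Each was higher in both snapback libraries than in either yw library. Tag 2 rose by 3.76 ± 0.57 and tag 9 by 4.65 ± 0.73 on the log2 scale in snapback (SE, edgeR adjusted p = 0.00154 for each). With 1 library left out, tag 9 ranged from 4.06 (snapback replicate 2 omitted) to 4.99 (snapback replicate 1 omitted). Tag 12 did not pass, with 1.22 ± 0.63 (edgeR adjusted p = 0.103), though it did with listed 23 nt reads as the library size (1.90, adjusted p = 0.0262).

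The difference of tag 2 was far larger at 23 nt than over all lengths. In reads per 1000000 listed reads of any length, tag 2 itself was 28.4-fold higher in snapback than in yw. All 18 to 30 nt tags with its first 18 bases reached 11682 and 10020 on that scale in snapback and 4678 and 4832 in yw, a 2.28-fold difference. For tag 9 the difference was 51.7-fold at 23 nt and 3.05-fold over all lengths. For tag 12 it was 5.02-fold at 23 nt and 8.35-fold over all lengths, so that here the 23 nt form understated it. This comparison over lengths was made after the values of the tags were seen.

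The position of the 3′ end differed between the genotypes in this sequence. Counting from 1 at the first base of tag 2, 73.0% and 63.9% of the overlapping reads ended at base 20 in yw, and a further 21.6% and 29.3% at base 21. In snapback 34.2% and 41.1% ended at base 23, 18.2% and 25.9% at base 22, and 42.4% and 24.1% at base 21. A tag that starts with tag 2 and ends at base 23 has 23 nt, whereas one that ends at base 20 has 20 nt. The shift was also seen at the starts of tags 9 and 12, the other starts at which ends were tallied. Of the reads that start with tag 9, 72.1% and 62.9% ended at base 20 in yw and 1.23% and 1.42% did so in snapback. Of the reads that start with tag 12, 2 bases earlier, 61.4% and 60.6% ended at base 20 in yw and 57.9% and 60.4% at base 23 in snapback. The start with the most reads was that of tag 2 in every library, at 52.4% and 47.2% in snapback and 59.1% and 60.5% in yw.

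**Figure D4:**
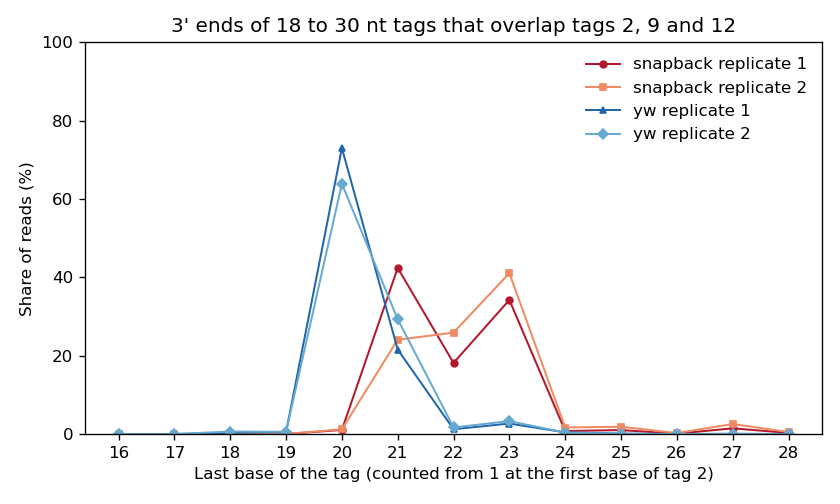
Last base (horizontal axis, counted from 1 at the first base of tag 2) of all 18 to 30 nt tags that overlap tags 2, 9 and 12, as a share of their reads (vertical axis, %), with 1 line per library. The yw lines peak at base 20, at 73.0% and 63.9%, and the snapback lines lie at bases 21 to 23.

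How adapters were trimmed is not given in the sources used here, and its part in these end positions was not tested. Among other abundant tags the 23 nt form, as a share of the 22 and 23 nt forms, was higher in both snapback libraries for some and lower for others. It was higher for tag 4 (94.3% and 93.1% against 52.1% and 83.1% in yw), tag 6 (66.7% and 67.7% against 58.2% and 49.05%) and tag 16. It was lower for tag 7 (68.5% and 72.1% against 84.6% and 84.2%) and tag 8 (78.5% and 84.3% against 87.7% and 86.8%).

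Other tags that were high in snapback were windows of the most abundant 30 nt tag of the series. Up to 6 of its 8 possible 23 nt windows were listed, and together they held 13.9% and 16.2% of 23 nt reads in snapback and 0.455% and 0.814% in yw. Tag 3, of family 4, is its first window and stood at 90639 and 124193 RPM in snapback and 3146 and 5967 in yw. It rose by 4.02 ± 0.66 on the log2 scale (SE, edgeR adjusted p = 0.00154). Tag 10, with CTACATA at bases 2 to 8, is its last window and stood at 47438 and 37656 against 1278 and 2030 (4.07 ± 0.69, edgeR adjusted p = 0.00154). Tag 3 had 98.7% to 99.4% of overlapping reads at its own start and tag 10 had 4.17% to 11.9%. The 23 nt window was a minor form of this RNA. It made up 0.434% and 0.647% of the reads that share the first 18 bases of tag 3 in snapback, and 0.666% and 0.926% in yw. Scaled to listed reads of any length, tag 3 was 33.4-fold higher in snapback than in yw. All 18 to 30 nt tags with its first 18 bases were 47.5-fold higher, so its rise was not particular to 23 nt. For tag 10 the difference was 35.6-fold at 23 nt and 34.8-fold over all lengths. Reads of 23 nt made up 98.6% to 100% of those with its first 18 bases, so these 2 values count nearly the same reads.

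Abundant tags that begin with G were low in snapback. Tag 5, of family 5, was at 2548 and 1789 RPM in snapback and 129256 and 66914 in yw. Tag 13, which starts 1 base earlier and has GTGGGGA at bases 2 to 8, was at 880 and 817 against 62355 and 9561. Tag 15, with GGGATGT, was at 435 and 81.0 against 20029 and 40115. All 3 passed edgeR at an adjusted p of 0.00154. On the log2 scale tag 5 fell by 6.25 ± 0.76, tag 13 fell by 6.21 ± 1.15 and tag 15 fell by 7.57 ± 1.03 (SE). Their sizes depended on single libraries. Tag 13 was at -3.76 without yw replicate 1 and -7.27 without yw replicate 2, and tag 5 at -5.23 and -6.98. Tag 15 was at -8.93 with snapback replicate 1 omitted and at -6.98 with replicate 2 omitted. The yw libraries differed from each other here, and the level of tag 13 in replicate 1 was several times that in replicate 2. Over all lengths with the same first 18 bases, tag 5 was 28.5-fold and tag 15 14.8-fold lower in snapback, in reads per 1000000 listed reads. Tags 5 and 13 had staggered starts, with 31.1% to 50.3% and 16.3% to 30.2% of overlapping reads at their own start, whereas tag 15 had 99.8% to 100% at 1 start, with 24 nt as its most frequent length in every library.

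Another kind of abundant tag was tag 16, a minor extension of an abundant 22 nt tag. It leads family 10 and had 704 and 3692 RPM in snapback and 28390 and 22388 in yw, a log2 difference of -4.07 ± 1.02 (SE, edgeR adjusted p = 0.00544). The snapback libraries differed, and with 1 library left out the log2 difference ranged from -3.27 (snapback replicate 1 omitted) to -6.12 (snapback replicate 2 omitted). It was -4.70 when yw replicate 2 was omitted. The 22 nt tag without its last base had 726 and 5536 reads in snapback and 707691 and 267720 in yw. The 23 nt form made up 1.35% and 1.41% of the pair in yw and 8.56% and 8.99% in snapback. The same 22 nt tag was also extended by other bases. For every 100 reads of tag 16, which ends in T, there were 68.5 and 60.9 reads with the change T23A and 14.8 and 25.9 with T23C in yw. In snapback there were 32.4 and 50.6 with T23A, and 0 and 2.93 with T23C. The added base was thus mixed, and which of these ends the genome encodes was not looked up.

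Over all 23 nt tags, most reads equalled a listed 22 nt tag of the same library plus 1 base at the 3′ end. This was so for 89.0% and 90.2% of reads in snapback (exact 95% intervals 88.8 to 89.2 and 90.1 to 90.4) and for 94.4% and 89.6% in yw (94.3 to 94.4 and 89.5 to 89.8). The means were 89.6% ± 0.891 and 92.0% ± 3.34 (SD, n = 2 each, p = 0.667 by the exact permutation test), and the groups overlapped. Counted as distinct tags the share was 40.5% and 37.7% in snapback and 47.3% and 42.7% in yw. The tags with a 22 nt counterpart were the better covered ones, with a median of 13 to 15 reads against 6 or 7 for the others. At 22 nt the share of reads with a listed tag 1 base shorter was 90.04%, 83.7%, 98.1% and 98.2% in the same order of libraries, and at 24 nt it was 67.5%, 71.0%, 94.5% and 92.5%.

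The 23 nt tag had more reads than its 22 nt counterpart in fewer than 50% of the pairs, but these pairs held most 23 nt reads. In 49.1% and 48.8% of the pairs in snapback and in 42.2% and 38.9% in yw, the 23 nt tag had more reads than the 22 nt tag, and these tags held 80.8% and 79.2% of 23 nt reads in snapback and 74.6% and 63.0% in yw. Summed over pairs, 23 nt reads made up 53.4% and 55.3% of the 2 lengths in snapback and 18.2% and 14.4% in yw. The yw sums include the 22 nt counterpart of tag 16, with 707691 and 267720 reads. Its weight in these shares was not tested. Of 120 pairs listed in all 4 libraries, the 23 nt share did not overlap between the groups in 92, higher in snapback for 57 and lower for 35. That is 76.7%, close to the 78.3% of 848 pairs 1 nt apart at any length from 19 to 30 nt, and so not a result about 23 nt. The median 23 nt share of the 120 pairs was 51.0% and 53.6% in snapback and 38.8% and 35.6% in yw.

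**Figure D5:**
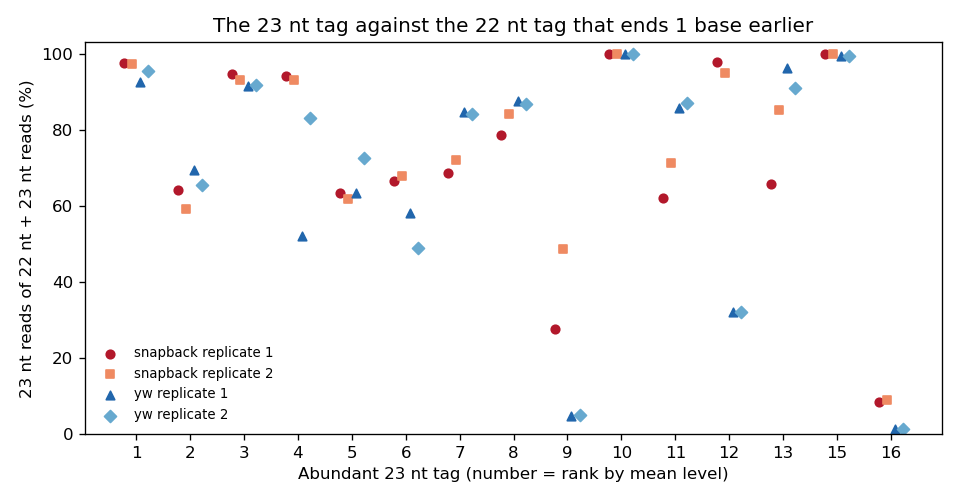
Reads of each abundant 23 nt tag as a share of its reads plus those of the 22 nt tag that ends 1 base earlier (vertical axis, %), by tag (horizontal axis, numbered by mean level), with 1 point per library. Tag 1 lies between 92.6% and 97.6%, and tag 16 lies at 8.56% and 8.99% in snapback and at 1.35% and 1.41% in yw. The points of most tags separate the genotypes, in both directions. Tag 9 is higher in snapback, at 27.6% and 48.6% against 4.78% and 4.96%. Tag 2 is lower there, at 64.1% and 59.2% against 69.5% and 65.6%.

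The base that followed the 22 nt counterpart differed between genotypes in reads. It was T for 43.5% and 44.5% of extending reads in snapback and 19.7% and 19.2% in yw, and C for 29.1% and 25.2% against 40.7% and 44.2%. Tag 2, the most abundant snapback tag, ends in T. Without the most abundant tag of each library, T stood at 27.7% and 28.97% in snapback and 22.9% and 22.8% in yw. C then stood at 37.2% and 32.2% in snapback and 31.2% and 33.7% in yw, so that the groups overlapped and the direction of their means turned. In distinct extending tags T was at 48.2% and 48.8% in snapback and 25.04% and 29.3% in yw. Extensions of a 22 nt counterpart with at least 10 times as many reads comprised 44 and 67 tags for snapback against 217 and 159 for yw, and held 1.18% and 1.56% against 8.87% and 9.57% of 23 nt reads. Among the reads of these rare extensions the added base was T in 33.0%, 46.8%, 56.3% and 60.0% and A in 42.8%, 35.1%, 29.9% and 23.5%, in the order snapback replicates 1 and 2 and yw replicates 1 and 2. T and A were the most frequent added bases in every library.

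Few 22 nt tags were extended by more than 1 base. Of 307, 372, 1299 and 659 such 22 nt tags in the 4 libraries, 5.21%, 6.45%, 5.23% and 10.3% had 2 or more different 23 nt extensions. In these, the most frequent extension held 98.99% and 99.1% of reads in snapback and 94.9% and 94.3% in yw. No 23 nt tag had a partner on the opposite strand with 21 paired bases and 3′ overhangs of 2 bases, the geometry of a Dicer product, in any library.

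T was the most frequent first base in every library. It began 51.7% and 56.4% of 23 nt reads in snapback and 53.8% and 56.2% in yw, or 54.1% ± 3.34 and 55.0% ± 1.63 (SD, n = 2 each, p = 1 by the exact permutation test). In distinct tags T began 38.0% ± 1.31 and 36.7% ± 1.08. Without the most abundant tag of each library, T-first reads stood at 64.2% and 70.3% in snapback and 46.97% and 48.9% in yw. The tags removed begin with A in snapback and T in yw. Their removal by itself raises the T share in snapback and lowers it in yw, so the direction of this gap was set in advance. The genotypes separated at A and G. Reads with A first made up 36.1% and 34.2% in snapback and 13.8% and 19.4% in yw, and reads with G first 2.45% and 1.86% against 27.5% and 19.2%. Tag 2 held 53.9% and 57.7% of the A-first reads in snapback, and tag 5 held 47.1% and 34.9% of the G-first reads in yw. Among distinct tags the difference at G was smaller, at 12.6% and 12.3% in snapback and 19.6% and 20.1% in yw. A stood at base 10, the position that marks amplified Piwi-interacting RNAs, at 5.69% and 5.59% of reads for snapback against 21.7% and 24.3% for yw. By distinct tags the values were closer, at 17.9%, 20.4%, 21.6% and 23.1% in the same order.

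Of the 4388 tags, 696 (15.9%) passed the filter on low counts in the edgeR fit to tags of every length, and they held 97.2% and 96.6% of 23 nt reads in snapback and 91.1% in each yw library. The other 3692 were not tested. Of the 696, 200 were higher and 274 lower in snapback, and 222 did not pass. With library totals 241 were higher and 254 lower, and in a fit to 18 to 30 nt tags alone 146 were higher and 300 lower, so that the balance of directions moved with the scaling. Of the 474 calls, none remained with the replicate number as a block, where 0 of the 30852 tags of all lengths were called. Without the filter 33 of 4388 tags were called, against 5325 of 252353 of all lengths. A fit with 1 library left out has a single library in a group, so its calls say nothing of stability and only its log2 differences are given. In the main fit 68.1% of the 23 nt tags tested were called, 28.7% higher and 39.4% lower. Of the 30852 tags of all lengths 79.1% were called, 36.8% higher and 42.3% lower. The median log2 difference was -1.02 over the 696 and -0.71 over all tags tested. It was -0.40 and -0.10 with listed 23 nt reads as the library size, so that the scaling alone moved these medians by more than 0.1. Of the called tags, 140 of the 200 and 199 of the 274 were absent from the other genotype, and these passed the filter only through the genotype in which they were listed. Among the 357 tested tags listed in both genotypes, 60 were higher and 75 lower, which is 37.8%, against 48.7% of the 12568 tags of all lengths listed in both.

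The largest rises among well-covered tags were led by tag 56, with TACAGTC at bases 2 to 8. It held 1564 and 3611 RPM in snapback and was absent from yw, at least 89.4-fold above the value that 3 reads in a yw library allow. Tag 148, which was also absent from yw, had 186 and 1080 RPM in snapback. Of the remaining 8 of the 10 largest rises, 7 differ by 1 base from a more abundant tag, which was tag 2, 3, 9, 10 or 12. Tag 106, for example, differs from tag 9 by T23A and had 2.53 and 1.01 reads for every 100 of it. Tag 173, which differs from tag 2 by G8T, rested mostly on 1 library, at 974 RPM in snapback replicate 1 and 60.7 in replicate 2.

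The largest falls were led by tag 26, with ATGACGG at bases 2 to 8, at 12159 and 9718 RPM in the yw libraries. It was absent from snapback and so at least 313-fold lower there. Its 22 nt counterpart was listed with 5 and 4 reads in snapback and 3220 and 1710 in yw. Tag 38, with GGGACGT, had 6426 and 6428 RPM in the yw libraries, and its absence from snapback puts it at least 207-fold lower. It differs from tag 15 by T6C and had 32.1 and 16.02 reads for every 100 of tag 15 in yw. Tag 50, which differs from tag 1 by G21T, rested on 1 library, with 76.0 RPM in yw replicate 1 and 6615 in replicate 2. It is at least 2.45-fold lower in snapback by the lower of its yw values. Of the other 7 of the 10 largest falls, all absent from snapback, the highest yw mean was 3240 ± 1390 (SD, n = 2), of tag 51 with GAGGTGG at bases 2 to 8. Over all called tags, 62 of the 200 higher and 66 of the 274 lower ones differed by 1 base from a more abundant 23 nt tag, as did 78 of the 222 that were not called.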

How the data were processed

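Per the file headers, the authors deposited for each of the 4 libraries a list of distinct tags with a read count for each. These deposited counts are whole and not normalized. The submitters' processing notes name the build dm3, but tags carry no coordinates. The trimming is not given in the sources used here. Tags of 23 nt without N were kept, and 9 to 30 tags with N per library were left out. The length was set by the rule, but lists, named tags and tests were chosen with earlier results of these data known.

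Tags of every length were tested by edgeR 4.0.16 in R 4.3.3 (quasi-likelihood, TMM, filterByExpr, Benjamini-Hochberg adjustment over 30852 tags, threshold 0.05). Standard errors are the log2 difference over the square root of F. Library shares were compared by exact permutation tests in SciPy 1.17.1. The scripts were tested on simulated data. Named tags are the 10 most abundant of each group, and the 10 largest rises and falls among called tags with a mean of at least 100 RPM in a group and no overlap. The 5 largest families of each group are named too. The planned miRNA lists were not used, because no miRNA sequences were at hand to match. RPM are scaled to listed 23 nt reads, so a value moves with the abundant tags of its library. Replicate numbers were not used as pairs. Alternatives were other library sizes, DESeq2 1.42.0, no filter, a replicate block and single libraries left out.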

Additional observations from a re-analysis of the deposited data

How the results depend on the processing

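The leave-out of windows of the 30 nt tag was added after the data were examined. The difference in the 23 nt share, -1.72 percentage points of 18 to 30 nt reads, turned to 0.457 of all listed reads and 11.1 without 30 nt reads, and the difference in the T-first share, -0.945, to 1.24 for distinct tags, 19.3 without the most abundant tag, and -3.31 to 1.42 without 1 library (above 0 without snapback replicate 1, 1.42, or yw replicate 2, 0.208). The extension difference, -2.38, was 0.693 without windows of the 30 nt tag and -0.0166 without yw replicate 1. Without TMM, tags 1, 4 and 8 turned to 0.15, 0.079 and 0.13 (log2), and tag 7 to -0.037 without snapback replicate 2 and -0.17 without yw replicate 2 (-0.17 to 0.76 over the libraries left out); none passed. The causes were not tested. The count of 474 called tags was 446 to 495 with DESeq2, other library sizes or 18 to 30 nt tags, and 33 without the filter, where 4388 were tested. With the replicate block it was 0, as it was for tags of all lengths. In that fit 271 of the 23 nt tags had an unadjusted p under 0.05, and same-numbered deviations correlated at -0.044. Leaving out any 1 library leaves 1 library in a group, so the calls of such fits say nothing of stability. The 4-read minimum limits absent tags.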
